A study of Canis lupus familiaris with 28 samples.

Results

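The small leucine-rich proteoglycans examined here are the products of DCN, LUM, BGN, FMOD, OGN, ASPN and PRELP. Each gene was read at the brightest Transcript cluster (the set of array probes along 1 transcribed locus) that carries its symbol alone in the array annotation. All 7 genes were found among the 16295 genes measured in this way, and each had 1 Transcript cluster.

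RNA had been extracted from archived formalin-fixed biopsies of primary canine oral malignant melanomas (OMMs), a mucosal tumour of pigment cells, and each tumour had been hybridised to its own array. The 18 tumours of the M group came from dogs that died of metastatic disease, and the 10 tumours of the NM group from dogs that were alive long after surgery. The M group held 6 Cross breed dogs, 4 Golden Retrievers, 3 Labrador Retrievers, 2 Dachshunds and 1 each of Cocker Spaniel, Bullmastiff and Border Collie. The NM group held 4 Golden Retrievers, 2 Labrador Retrievers, 1 Cross breed dog and 1 each of Great Dane, Irish Terrier and Bouvier des Flandres. Status was thus set by the course of the disease rather than by an intervention, M tumours were of later clinical stage, and stage and status cannot be told apart here. Cross breed dogs were mostly in the M group, so that breed and status overlap in part. Biopsies had been taken at surgery, ahead of adjuvant treatment. Values are log2 expression after robust multi-array averaging (RMA), a method that puts all arrays on a common distribution of probe signals.

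Small leucine-rich proteoglycans are secreted proteins built around a curved stack of leucine-rich repeats, and most carry glycosaminoglycan chains. They coat collagen fibrils and set fibril diameter and spacing, and several also bind growth factors or receptors in the matrix. In soft tissues they are made mainly by fibroblasts, and in a tumour biopsy they are commonly read as part of the stroma. Decorin (DCN), biglycan (BGN) and asporin (ASPN) form the first class of the family, lumican (LUM), fibromodulin (FMOD) and PRELP the second, and osteoglycin (OGN) belongs to the third. In a biopsy of mixed cells, fewer cells of a type and less RNA per cell cannot be told apart.

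The members lie in a few blocks of the dog genome. In the RefSeq annotation of assembly UU_Cfam_GSD_1.0, LUM and DCN are neighbours with 0 protein-coding genes between them, next to KERA and EPYC, which encode keratocan and epiphycan. ASPN and OGN lie in a run of ECM2, ASPN, OMD and OGN, again with 0 other protein-coding genes between neighbours, and FMOD lies next to PRELP, which is followed by OPTC. BGN is the exception, with 603 protein-coding genes between it and NYX, the closest other family member on its chromosome.

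Signal was modest for most members. The mean log2 level of a Transcript cluster had a median of 1.62 over the array, and the mean over 28 tumours was 3.89 for BGN, 3.44 for DCN, 2.88 for LUM, 2.31 for PRELP, 1.85 for FMOD, 1.68 for ASPN and 1.37 for OGN. Levels of different genes come from different probes and are not ranked against each other. OGN was below the array's median, and ASPN and FMOD were little above it. What this does to their differences was not tested. Variation between tumours followed another pattern. DCN spanned a 21.5-fold range from the lowest to the highest tumour and had a larger SD (1.37 on the log2 scale) than 97.9% of Transcript clusters. The ranges were 10.7-fold for LUM, 10.9-fold for BGN, 6.31-fold for PRELP, 6.17-fold for ASPN, 3.10-fold for FMOD and 2.47-fold for OGN. DCN, LUM and BGN were thus among the most variable Transcript clusters, whereas FMOD and OGN, with larger SDs than 62.4% and 53.1% of Transcript clusters, were not.

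The arrays themselves differed along 1 main axis. The first principal component over all Transcript clusters held 34.9% of the variance, and its score ran from -93.2 to 89.2. Arrays with high scores had more bright Transcript clusters, and the share above a log2 level of 4 went from 4.30% to 6.40% over the 28 arrays. The melanocyte markers PMEL, a melanosome protein, and SOX10, a transcription factor of the pigment lineage, ranged from 1.70 to 6.74 and from 2.36 to 4.23. COL1A1, the main chain of type I collagen, ranged from 2.40 to 8.13.

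The first question was whether members differed between M and NM OMMs. No member passed the test. Of 32391 Transcript clusters 0 passed an adjusted p of 0.05 in limma (0% called), and 825 (2.55%) had an unadjusted p under 0.05, with the methods' t-test giving 0 and 846. That t-test was adjusted here by Benjamini-Hochberg over all Transcript clusters, and neither the permutation adjustment nor the detection filter of the study was applied. No member was called and 0 of 7 had an unadjusted p under 0.05. In 6 of 7 members the mean was lower in the M group, and the median difference over the members was -0.15, beside 0.00072 over all Transcript clusters. The members vary together across tumours, so these signs are not separate results. Without NM replicates 2 and 5, a choice made after seeing the data, LUM, OGN, ASPN and PRELP turned to 0.25, 0.033, 0.20 and 0.032.

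**Figure D1:**
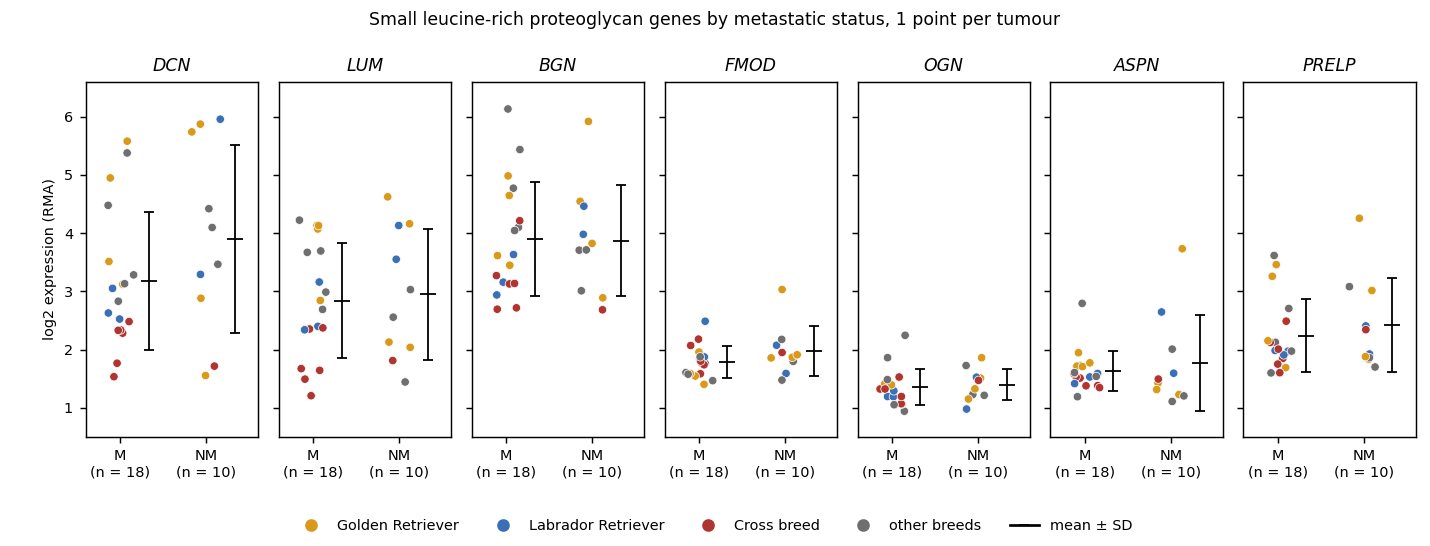
Log2 expression (RMA) of each member in M (n = 18) and NM (n = 10) tumours, with 1 point per tumour coloured by breed class and the mean and SD drawn beside the points. The groups overlap for every member, and the red points (Cross breed) lie low for DCN, LUM and BGN.

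DCN encodes decorin, which binds collagen fibrils and sequesters transforming growth factor beta. Its log2 level was lowest at 1.53, median 2.94 and highest 5.58 in M tumours, and 1.55, 3.78 and 5.96 in NM tumours. The range of the NM group covered nearly all of the range of the M group. M tumours were lower by 0.72 on average, with a mean of 3.18 ± 1.18 (SD, n = 18) against 3.90 ± 1.62 (SD, n = 10). The 95% confidence interval of the difference in limma was -1.77 to 0.33 (adjusted p = 1.0), and a two-sided permutation test gave p = 0.185. In 33.9% of all pairs of an M and an NM tumour the M tumour was the higher. The interval is wide and includes sizeable differences, so the lack of a call does not show equal levels.

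BGN encodes biglycan, a close relative of decorin that also acts on Toll-like receptors when released from the matrix. M tumours had 2.69, 3.62 and 6.13 as lowest, median and highest log2 level, and NM tumours 2.68, 3.77 and 5.92. The ranges were almost identical. The means were 3.89 ± 0.98 (SD, n = 18) and 3.87 ± 0.95 (SD, n = 10), a difference of 0.02 (95% interval -0.73 to 0.77, permutation p = 0.961).

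ASPN encodes asporin, which has a run of aspartic acid residues in place of glycosaminoglycan chains and, like decorin, binds collagen. Lowest, median and highest log2 levels were 1.19, 1.56 and 2.79 in M tumours and 1.11, 1.46 and 3.73 in NM tumours. The M median was the higher and the M mean the lower, because NM replicate 2 and NM replicate 5 stood at 3.73 and 2.65 while the other NM tumours lay at 2.01 or below. The mean difference was -0.15 (95% interval -0.59 to 0.29, permutation p = 0.536), and it was 0.07 without NM replicate 2 and 0.20 without both tumours, a choice made after seeing the data.

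LUM encodes lumican, a keratan sulphate proteoglycan of cornea, skin and other connective tissues. It read 1.21, 2.77 and 4.22 (lowest, median and highest log2 level) in M tumours and 1.44, 2.79 and 4.62 in NM tumours. The medians all but coincided. The difference of -0.11 (95% interval -0.91 to 0.69, permutation p = 0.788) turned to 0.29 without the Cross breed tumours and to 0.25 without NM replicates 2 and 5.

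FMOD encodes fibromodulin, which shares collagen binding sites with lumican and promotes fibril maturation. Its levels were low and narrow, 1.40, 1.76 and 2.49 in M tumours and 1.47, 1.89 and 3.03 in NM tumours. A single NM tumour, replicate 2, lay apart from the others. Of the 7 members FMOD had the smallest permutation p, 0.165, for a difference of -0.19 (95% interval -0.45 to 0.07), which shrank to -0.07 without NM replicate 2.

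PRELP encodes a basic, arginine-rich and proline-rich member that anchors basement membranes to connective tissue. M tumours ran from 1.598 through a median of 1.995 to 3.62, and NM tumours from 1.70 through 2.13 to 4.26. Most tumours of both groups were crowded at the lower end, with a few high ones in each. The difference was -0.19 (95% interval -0.73 to 0.35, permutation p = 0.490).

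OGN encodes osteoglycin, also called mimecan, first known from bone. Levels were 0.94, 1.32 and 2.24 in M tumours and 0.98, 1.40 and 1.86 in NM tumours, and the median of both groups was below the array's median of 1.62. The groups differed by -0.04 (95% interval -0.28 to 0.20, permutation p = 0.738).

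The genes that act with the members were described in the same fit. Of 9 other small leucine-rich proteoglycans measured, 0 had an unadjusted p under 0.05, and their differences ran from -0.16 for ECM2 to 0.12 for OMD and CHAD. Among 13 fibrillar and associated collagens, 20 enzymes of glycosaminoglycan chains, 22 receptors and ligands of the family and 14 fibroblast markers the number was 0 each. Of 11 collagen folding and crosslinking enzymes 1 had such a p, P4HA1, a subunit of prolyl hydroxylase, with a difference of 0.31 (unadjusted limma p = 0.0351). A list of 14 genes covered proteases that can cut the family and the protease enhancer PCOLCE. In it 1 had such a p, the collagenase MMP13 (0.14, unadjusted limma p = 0.0343). The 19 other proteoglycans held 2, the cell surface proteins SDC2 (0.17, unadjusted limma p = 0.0208) and GPC1 (0.28, unadjusted limma p = 0.0461). All of these had an adjusted p of 1.0.

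Breed was the other label given for every tumour. Golden Retrievers, 4 in each group, were compared with the other 20 dogs, with status in the model. In this comparison 824 Transcript clusters were called (2.54%), of which 470 were higher (1.45%) and 354 lower (1.09%), but the number depended heavily on single tumours and on processing. It was 0 without the Cross breed tumours, 104 after quantile normalisation and between 2 and 4908 when each tumour was left out in turn. The share of calls that were higher was 57.0%, and it was 87.5% after quantile normalisation and 70.4% after centring each array on its median.

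No member was called in Golden Retrievers, although all 7 differences were positive (median 0.51, beside -0.07 over all Transcript clusters). LUM had lowest, median and highest log2 levels of 2.04, 4.10 and 4.62 in Golden Retrievers and 1.21, 2.48 and 4.22 in the other dogs. Of the 8 Golden Retriever tumours 5 lay close together at the top and the rest were well inside the range of the other dogs. The difference was 0.91 (SE 0.39, adjusted limma p = 0.132). DCN differed by 0.89 (SE 0.54, adjusted limma p = 0.259), PRELP by 0.52 (SE 0.27, adjusted limma p = 0.196) and BGN by 0.51 (SE 0.39, adjusted limma p = 0.372). With array weights PRELP passed, at 0.76 (adjusted limma p = 0.0435), in a fit that called 7182 of 32391 Transcript clusters. ASPN, OGN and FMOD differed by 0.22, 0.04 and 0.02.

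The comparison group holds the 7 Cross breed dogs, and LUM and DCN fell to 0.49 and 0.37 without them. Golden Retriever arrays also had higher component scores, with a median of 69.1 against -25.2. With the score in the model DCN, BGN and OGN turned to -0.32, -0.38 and -0.07, and LUM to 0.15. KRT5, the keratin of basal epithelial cells, was called higher in Golden Retrievers (2.42, adjusted limma p = 0.0483), and 0 of the 9 remaining oral epithelium markers was called. The summed level of these 10 markers ranged from 5.18 to 9.03 on the log2 scale with a median of 7.59, against 5.10 to 7.82 and a median of 5.63 in the others. The summed level of the 14 fibroblast markers had a median of 7.16 and ranged from 6.13 to 9.41, against 5.96 to 8.43 and a median of 6.54 in the others, and 0 of them was called. COL1A1 differed by 0.92 (adjusted limma p = 0.229). Of 8 melanocyte markers 7 had a higher mean in Golden Retrievers (median difference 0.82) and 0 was called, and their summed level ranged from 5.12 to 8.83 with a median of 6.64, against 4.78 to 9.05 and a median of 5.72. Of 5 macrophage markers 3 had a higher mean and 2 a lower one (median difference 0.12), and 0 was called. MRC1, the mannose receptor, differed by 1.13 (adjusted limma p = 0.0767). The part of these markers in the member differences was not tested.

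Whether the M minus NM difference itself depends on this breed was tested as an interaction. Over the array 0 Transcript clusters were called (0%) and 993 (3.07%) had an unadjusted p under 0.05. FMOD came closest among the members, at -0.53 (SE 0.27, unadjusted limma p = 0.0611). With each tumour left out in turn this value ran from -0.64 to -0.24. Within Golden Retrievers the log2 levels of FMOD were 1.54, 1.40, 1.59 and 1.96 in the M tumours and 3.03, 1.86, 1.87 and 1.91 in the NM tumours. Of the M tumours 3 lay below all NM tumours and 1 lay above 3 of them. The difference was -0.54 and an exact permutation test gave p = 0.114, where 0.0286 is the smallest p that 4 tumours against 4 allow. It ran from -0.66 to -0.26 with each Golden Retriever tumour left out in turn. In the other 20 dogs the means differed by -0.01.

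DCN leaned the other way between breed classes. M exceeded NM by 0.28 in Golden Retrievers and was 0.97 lower in the other dogs, an interaction of 1.24 (SE 1.08, unadjusted limma p = 0.258), and no member was called in this test. The DCN levels of Golden Retrievers were 4.95, 3.51, 3.12 and 5.58 in M tumours and 5.87, 5.74, 2.88 and 1.55 in NM tumours. The NM tumours of this breed thus held both the highest and the lowest value, and the exact permutation p was 0.857. Over the array 0 Transcript clusters were called by limma within the breed (0%), and 934 had an unadjusted p under 0.05. For the other members the exact permutation p within Golden Retrievers was between 0.429 for LUM and 1.0 for ASPN.

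Of the 2 breed comparisons, that of Cross breed tumours gave the larger differences in DCN, LUM and BGN. They were compared with the other 21 dogs with status in the model, and 6281 Transcript clusters were called (19.4%), of which 4614 were higher (14.2%) and 1667 lower (5.15%). DCN, LUM and BGN were lower, and the 4 other members were not called. Calls in both directions varied with the mean level. Among the 2801 Transcript clusters with a mean of 3 or more, which include DCN and BGN, 27.3% were called lower and 25.1% higher. Among the 5563 with a mean of 2 to 3, which include LUM, 10.4% were called lower and 18.7% higher, whereas among the 24027 with a mean under 2 only 1.34% were called lower and 12% higher. The count of 3 of 7 therefore has to be read against a background that itself changes with the level.

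**Figure D2:**
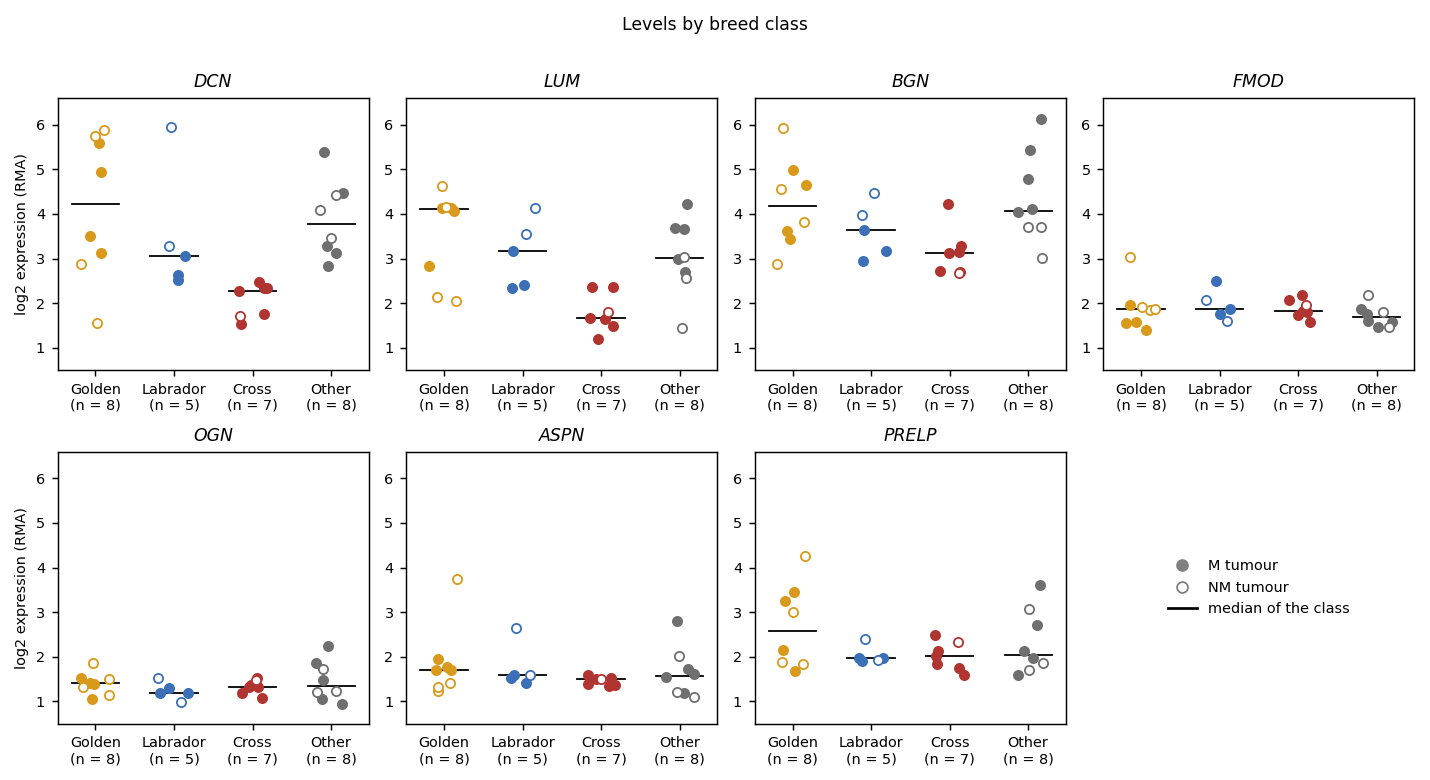
Log2 expression (RMA) of each member by breed class, with 1 point per tumour (filled for M, open for NM) and a bar at the median of the class. For DCN all 7 Cross breed tumours lie below 20 of the 21 other tumours, whereas for FMOD and OGN the classes lie at the same height.

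DCN in Cross breed tumours was 1.53, 1.71, 1.76, 2.28, 2.33, 2.34 and 2.48, against a lowest, median and highest of 1.55, 3.47 and 5.96 in the other dogs. Only 1 of the 21 other tumours, NM replicate 9 of the Golden Retrievers, was below the highest Cross breed tumour. The difference was -1.74 (SE 0.50, adjusted limma p = 0.0177), a 3.34-fold lower level.

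LUM in Cross breed tumours was 1.21, 1.49, 1.64, 1.67, 1.81, 2.35 and 2.37, against 1.44, 3.16 and 4.62 in the others. All 7 were below the median of the other dogs, and 17 of the 21 others were above the highest of them. The difference was -1.52 (SE 0.35, adjusted limma p = 0.00593), a 2.86-fold lower level.

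BGN in Cross breed tumours was 2.68, 2.69, 2.72, 3.13, 3.14, 3.27 and 4.21, against 2.89, 3.98 and 6.13 in the others. The overlap was wide, with M replicate 13 at 4.21 above 13 of the 21 other dogs. The difference was -1.10 (SE 0.37, adjusted limma p = 0.0395). It lost its call when any 1 of 11 tumours was left out (adjusted p 0.0517 to 0.0832), after quantile normalisation (-0.94, adjusted p = 0.0669) and among M tumours alone (-1.05, adjusted p = 0.083).

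ASPN in Cross breed tumours was confined to 1.35 to 1.58, all below the median of 1.59 in the other dogs, whose range was 1.11 to 3.73. The members that were not called differed by -0.27 for ASPN (SE 0.24, adjusted limma p = 0.428), -0.34 for PRELP (SE 0.30, adjusted limma p = 0.403), -0.06 for OGN (SE 0.13, adjusted limma p = 0.772) and 0.10 for FMOD (SE 0.15, adjusted limma p = 0.642). For FMOD only 2 of 7 Cross breed tumours lay below the median of the other dogs.

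Within M tumours alone, where 6 Cross breed tumours stand against 12 others, LUM differed by -1.57 (adjusted limma p = 0.00522) and DCN by -1.58 (adjusted limma p = 0.0254). The call of LUM held with each of the 28 tumours left out in turn, and that of DCN was lost only without NM replicate 10, the single Cross breed NM tumour (-1.58, adjusted limma p = 0.0521). Cross breed arrays lay at the low end of the main axis, with component scores from -93.2 to -37.5 against -52.0 to 89.2. With the score in the model 3 Transcript clusters were called on the whole array, and DCN, LUM and BGN differed by -0.56 (adjusted limma p = 0.856), -0.88 (adjusted limma p = 0.668) and -0.18 (adjusted limma p = 0.954). The share of Transcript clusters above a log2 level of 4 was 4.30% to 4.91% in Cross breed arrays and 4.82% to 6.40% in the others, and its part in the lower DCN, LUM and BGN was not tested. RNA integrity was not used here. Cross breed tumours and low scores overlap in these arrays, and their parts cannot be told apart.

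**Figure D3:**
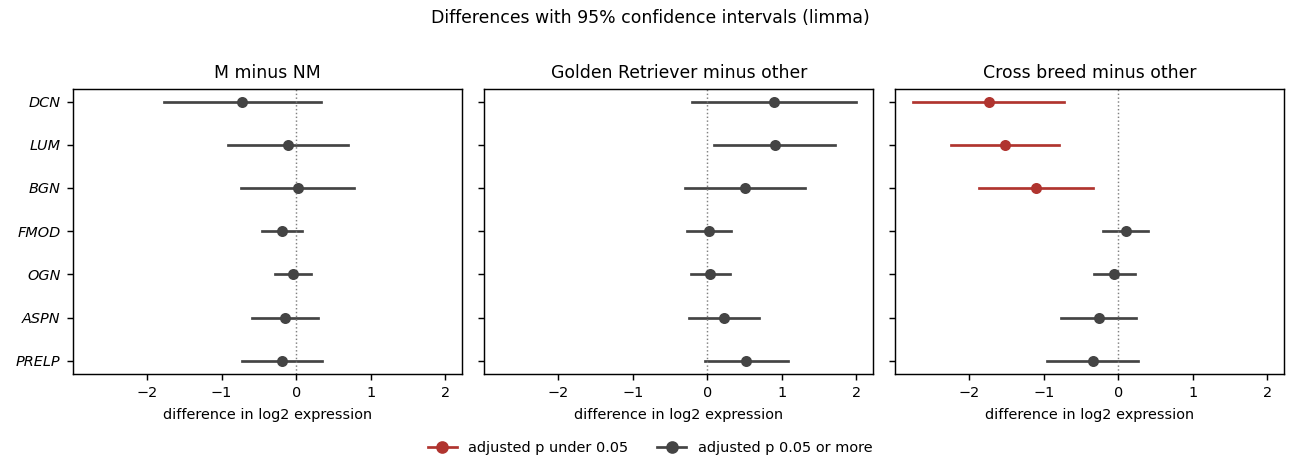
Difference in log2 expression of each member (points) with its 95% confidence interval (lines) in 3 limma comparisons, M minus NM, Golden Retriever minus other dogs and Cross breed minus other dogs. Red marks an adjusted p under 0.05, which DCN, LUM and BGN reach in the Cross breed comparison alone.

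Other lists were read in the same comparison, in which 14.2% of all Transcript clusters were called higher and 5.15% lower. The counts of each list have to be read beside these shares. Of the 9 other family members 3 were called, all higher, PODNL1 (0.52, adjusted limma p = 0.0184), EPYC (0.35, adjusted limma p = 0.0325) and TSKU (0.33, adjusted limma p = 0.044). ECM2, KERA, OMD and OPTC, which flank members in the genome, differed by -0.19, -0.0038, -0.11 and 0.19. COL1A1 differed by -1.17 (adjusted limma p = 0.112), COL1A2 by -0.94 (adjusted limma p = 0.103) and COL3A1, the main chain of type III collagen, by -0.71 (adjusted limma p = 0.148). Of the 13 collagens 0 were called lower and 2 higher, COL2A1 (0.39, adjusted limma p = 0.039), the collagen of cartilage, and COL11A2 (0.39, adjusted limma p = 0.0117). Of 14 fibroblast markers 1 was called lower and 0 higher, with a median difference of -0.26 beside 0.08 over all Transcript clusters. Their summed level ranged from 6.08 to 6.56 in Cross breed tumours and from 5.96 to 9.41 in the others. ACTA2, the actin of smooth muscle and activated fibroblasts, was called lower (-1.64, adjusted limma p = 0.00503), the only call among 8 smooth muscle and pericyte markers, whose median difference was -0.0098.

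Of the 19 other proteoglycans 3 were called lower and 4 higher. The lower ones were VCAN (-1.56, adjusted limma p = 0.0333), a large matrix proteoglycan, the hyaluronan receptor CD44 (-1.20, adjusted limma p = 0.0224) and SRGN (-0.53, adjusted limma p = 0.0461), a proteoglycan of secretory granules. The higher ones were BCAN (0.44, adjusted limma p = 0.0191) and NCAN (0.24, adjusted limma p = 0.0318), both known from brain matrix, and the glypicans GPC6 (0.43, adjusted limma p = 0.00467) and GPC3 (0.36, adjusted limma p = 0.0453). All 8 endothelial markers had a lower mean and 2 were called, PECAM1 (-1.13, adjusted limma p = 0.0174) and ENG (-0.36, adjusted limma p = 0.00569), and their summed level ranged from 4.51 to 4.69, against 4.56 to 5.75 in the others. All 5 macrophage markers had a lower mean and 1 was called, MRC1 (-1.27, adjusted limma p = 0.0307), with a summed level of 3.86 to 4.14 against 3.94 to 5.72. Genes named here beyond the first few of each list by p were chosen after their values were seen. Of 8 melanocyte markers 7 had a lower mean (median difference -0.64, beside 0.08 over all Transcript clusters). SOX10 was the only higher one and was called (0.58, adjusted limma p = 0.0354), whereas PMEL differed by -0.92 (adjusted limma p = 0.302). The summed level of the 8 melanocyte markers ranged from 5.22 to 6.28, against 4.78 to 9.05 in the others. That of the oral epithelium markers ranged from 5.20 to 5.71, against 5.10 to 9.03, with 0 of 10 called. Of these 10 markers 9 had a lower mean, with a median difference of -0.74. The part of these markers in the lower DCN, LUM and BGN was not tested.

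The members were next compared with each other across the 28 tumours, in 21 pairs. Pearson's r was positive in all 21, from 0.09 to 0.77 with a median of 0.50, and 14 pairs had an adjusted permutation p under 0.05. The highest was between the genomic neighbours DCN and LUM (r = 0.77, Spearman's rho = 0.79, permutation p = 1e-05, the smallest that 100000 resamples can give, adjusted p = 0.00021), and without the 2 tumours farthest from the DCN median r was 0.75. LUM and BGN followed, which are not neighbours (r = 0.73, rho = 0.76, adjusted permutation p = 0.00028, r = 0.69 without 2 tumours). DCN with PRELP (r = 0.67, rho = 0.49, adjusted permutation p = 0.00063, r = 0.72 without 2 tumours) and LUM with ASPN (r = 0.62, rho = 0.68, adjusted permutation p = 0.00028, r = 0.58 without 2 tumours) also rose and fell together. For BGN with ASPN r was 0.65 (rho = 0.50, adjusted permutation p = 0.00178) but 0.34 without the 2 tumours farthest from the BGN median. OGN and ASPN, which have OMD between them, had r = 0.57 (rho = 0.47, adjusted permutation p = 0.00916), and the neighbours FMOD and PRELP r = 0.37 (rho = 0.14, adjusted permutation p = 0.0637).

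**Figure D4:**
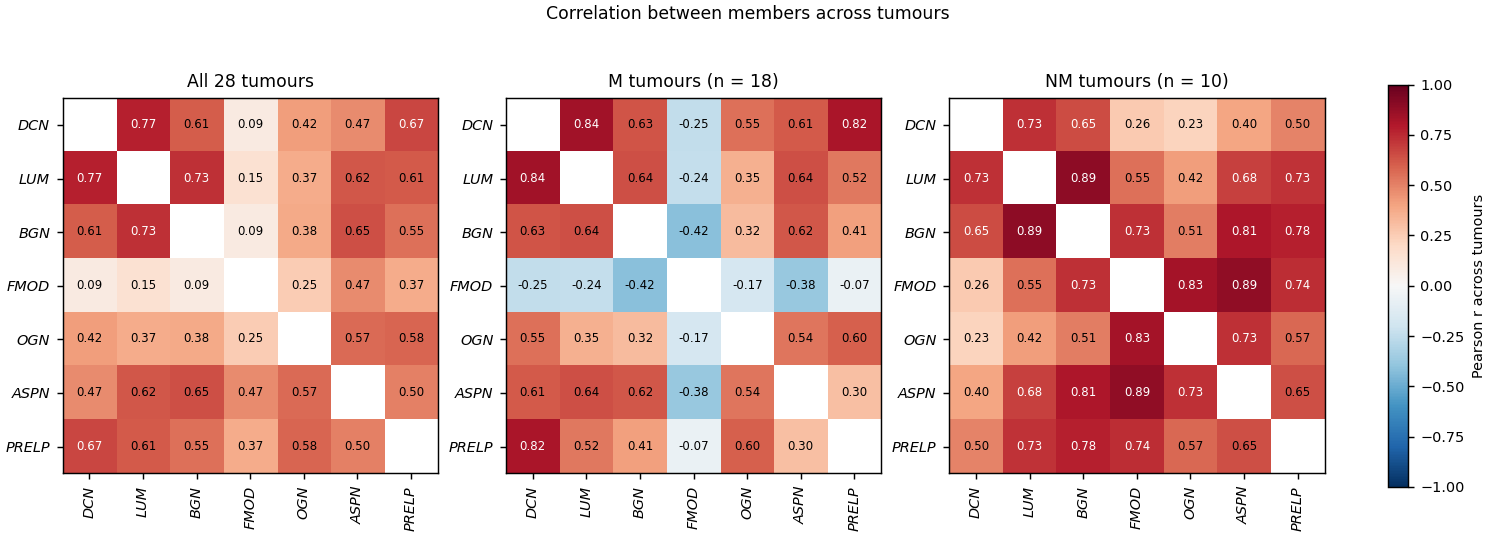
Pearson's r between members across all 28 tumours, the 18 M tumours and the 10 NM tumours, on a colour scale from -1 to 1. The FMOD row is blue in M tumours and red in NM tumours, whereas pairs without FMOD are positive in each panel.

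FMOD stood apart from the other members. Its 6 pairs had r from 0.09 to 0.47, and only FMOD with ASPN passed adjustment (r = 0.47, adjusted permutation p = 0.0392), with a rho of 0.02. That relation rested on 1 tumour, since r was -0.04 without NM replicate 2 and -0.03 without the 2 tumours farthest from the FMOD median. Within M tumours all 6 pairs were negative (r from -0.42 to -0.07), and within NM tumours all 6 were positive (r from 0.26 to 0.89). Without NM replicate 2 the NM values ran from -0.26 to 0.79, and FMOD with OGN kept the highest, 0.79 over 9 tumours. The difference in r between the groups was not tested. The 15 pairs without FMOD had r from 0.37 to 0.77, and from 0.17 to 0.74 without NM replicate 2.

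Part of this shared variation ran along the main axis of the arrays. The component score had r = 0.66 with DCN (rho = 0.68, adjusted permutation p = 0.000653 over 7 relations, r = 0.66 without 2 tumours), 0.64 with LUM (rho = 0.63, adjusted permutation p = 0.000653, r = 0.66 without 2), 0.67 with BGN (rho = 0.63, adjusted permutation p = 0.00049, r = 0.74 without 2) and 0.59 with PRELP (rho = 0.41, adjusted permutation p = 0.00133, r = 0.69 without 2). ASPN, OGN and FMOD had 0.31, 0.24 and -0.14, none past adjustment (adjusted permutation p = 0.157, 0.258 and 0.499). The value for FMOD depended on NM replicate 2, since r was -0.46 without it, a choice made after seeing the data. For FMOD rho was -0.33 over all tumours, and r was -0.51 within M tumours and 0.35 within NM tumours (-0.28 without NM replicate 2). After the score was removed from both genes of each pair, all 21 correlations were still positive, from 0.24 to 0.63, with 0.61 for DCN with LUM and 0.30 for DCN with BGN. Without the Cross breed tumours they ran from 0.13 to 0.68.

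**Figure D5:**
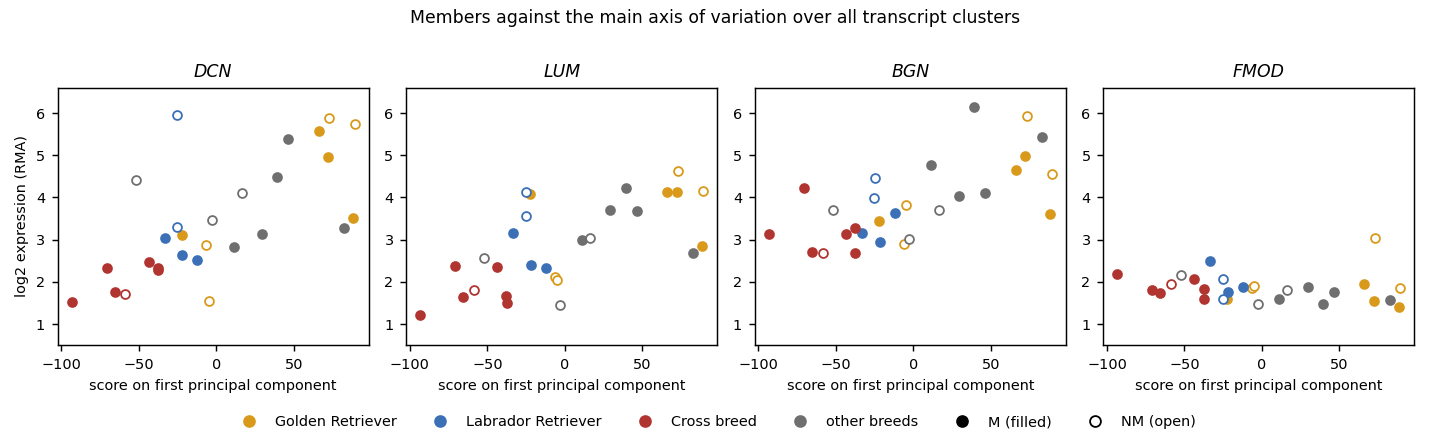
Log2 expression (RMA) of DCN, LUM, BGN and FMOD against the score of each array on the first principal component, 1 point per tumour (filled for M, open for NM) coloured by breed class. DCN, LUM and BGN rise with the score (r = 0.66, 0.64 and 0.67), and Cross breed tumours lie at the left end. FMOD has r = -0.14, and -0.46 without NM replicate 2.

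COL1A1 was used to place the members against fibrillar collagen. LUM (r = 0.80, rho = 0.83, adjusted permutation p = 7e-05 over 7 relations, r = 0.80 without 2 tumours) and ASPN (r = 0.78, rho = 0.69, adjusted permutation p = 0.00021, r = 0.47 without 2) were closest to it. BGN had r = 0.61 (rho = 0.60, adjusted permutation p = 0.00203, r = 0.50 without 2), PRELP 0.53 (rho = 0.41, adjusted permutation p = 0.00748, r = 0.32 without 2) and DCN 0.51 (rho = 0.59, adjusted permutation p = 0.00748, r = 0.50 without 2). OGN with 0.39 (rho = 0.38, adjusted permutation p = 0.0389) went to 0.24 without 2 tumours. FMOD with 0.50 (rho = 0.16, adjusted permutation p = 0.0127) went to 0.05 and so rested on them. LUM kept r = 0.77 with COL1A1 after removal of the component score and DCN 0.36. Within the 7 Cross breed tumours r was -0.11 for LUM and -0.19 for DCN.

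SOX10 ran against DCN and PRELP, with r = -0.45 (rho = -0.54) and r = -0.46 (rho = -0.41), but none of 7 relations with it passed adjustment on r (adjusted permutation p = 0.0579 for both). On rho DCN passed, with an adjusted permutation p of 0.0247. Once the component score was removed, the values were 0.20 and 0.05.

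A few tumours carried the extremes. NM replicate 2, a Golden Retriever, was the highest of all 28 tumours for LUM (4.62), FMOD (3.03), ASPN (3.73) and PRELP (4.26), and its COL1A1 level of 8.13 was the highest too. NM replicate 5, a Labrador Retriever, had a COL1A1 level of 7.003 with ASPN at 2.65 and LUM at 4.13, while its DCN level of 3.29 was close to the median of 3.13. NM replicate 4, also a Labrador Retriever, showed the reverse, with the highest DCN of all (5.96) and COL1A1 at its median level (3.81). M replicate 1, a Dachshund, had the highest BGN (6.13) and, at 2.79, the highest ASPN of the M group. The highest OGN (2.24) was in M replicate 9, a Cocker Spaniel, which also had the highest PRELP of the M group (3.62).

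The genes whose pattern was most like that of the members were sought among 16277 genes, by Pearson's r across the 28 tumours and as a description only. For the mean of the 7 members after scaling, the closest were COL3A1 (0.86), COL6A3 (0.85), FAT4 (0.81), COL12A1 (0.81), STOM (0.80), SSPN (0.80), COL1A1 (0.80), CTHRC1 (0.79), PDGFRL (0.79) and SERPINF1 (0.78). Collagen chains of types I, III, VI and XII are 4 of these 10. Taken singly, LUM was closest to SPARC (0.89), a collagen-binding matrix protein, then PDGFRL (0.87) and SLPI (0.84). ASPN was closest to CTHRC1 (0.82), COL1A2 (0.82) and COL6A3 (0.82).

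The remaining members had other companions. DCN was closest to SERINC1 (0.81), SMIM19 (0.79) and C1R (0.79), a protease of the classical complement pathway, and BGN to TJP1 (0.87), SSPN (0.85) and ZNF532 (0.83). PRELP was closest to TDRD3 (0.82), CPXM2 (0.81) and SRI (0.79). For FMOD the closest were SFRP4 (0.74), a secreted modulator of Wnt signalling, EGFL6 (0.67) and MMP27 (0.66), and for OGN they were SERPINF1 (0.67), RAP2A (0.66) and the cadherin CDH11 (0.66). The values for FMOD and OGN were lower than those of the other 5 members, whose closest gene had r of 0.81 or more.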

How the data were processed

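The authors processed the arrays with Affymetrix Expression Console 1.3 and deposited gene-level RMA values on the log2 scale for 32391 Transcript clusters and 28 tumours, each from a different dog. The detection filter described by the study was not applied. Symbols came from the array annotation. The members, gene lists and comparisons were chosen with earlier results of these data known. Every Transcript cluster entered the fits, made in R 4.3.3 by limma 3.58.1 (Benjamini-Hochberg, threshold 0.05), without covariates for M against NM and with status for breed. Scripts were tested on simulated data. Permutation tests were two-sided with 100000 resamples, or exact. Apart from the members, the genes named were other family members, up to 3 genes per list with the smallest p, defining markers, and the genes most alike by r. Marker sums are log2 of summed unlogged values. Alternatives covered limma's options, normalisation, low signal, breed, the component score, a replicate block and each tumour left out in turn. Arrays hold no counts, so the number of tumours limits the precision. The genome build of the array design is not given in the sources used here. Stage, block age and RNA integrity were not used, and PODN, whose Transcript cluster has several symbols, was not analysed here.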

Additional observations from a re-analysis of the deposited data

Results flagged for a closer look

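Tumours that lay far from the rest of their group were sought for each member in groups of 4 to 10 tumours, by the gap to the nearest tumour relative to the range. Of 49 groups 10 were marked, where chance marks about 5% of groups, and many of these groups share tumours. NM replicate 2, a Golden Retriever, was marked for FMOD at 3.031 among NM tumours (others up to 2.17), among Golden Retrievers (others up to 1.96) and among the 4 NM Golden Retrievers (others up to 1.91). The same tumour was marked for ASPN at 3.732 among Golden Retrievers (others up to 1.95) and among the NM ones (others up to 1.42).

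Among the 5 Labrador Retrievers NM replicate 4 was marked for DCN at 5.959 (others 2.52 to 3.29). In the same breed NM replicate 5 was marked for ASPN at 2.645 (others 1.41 to 1.59) and for PRELP at 2.406 (others 1.91 to 1.98). Among the 7 Cross breed tumours M replicate 13 was marked for BGN at 4.214 (others 2.68 to 3.27). Among the 4 M Golden Retrievers M replicate 10 was marked for LUM as the lowest, at 2.843 (others 4.07 to 4.13). No cause was tested for any of these values.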

How the results depend on the processing

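No member was called between M and NM tumours under any alternative, and 0 Transcript clusters were called in each, including with the replicate block, where 858 had an unadjusted p under 0.05. Replicate numbers do not pair the tumours, since the correlations of 10 pairs ran from -0.412 to 0.122 with 4 over 0.1, and 1 NM tumour was closest to its own number. Signs near 0 turned. LUM was 0.042 with array weights, 0.058 with breed as a random block and 0.29 without Cross breed tumours. It was 0.031 with the replicate block and 0.25 without NM replicates 2 and 5. BGN was -0.24 when only the breeds found in both groups were fitted, with breed in the model. OGN, ASPN and PRELP were 0.033, 0.20 and 0.032 without NM replicates 2 and 5. With each tumour left out in turn LUM ran from -0.28 to 0.077, BGN from -0.11 to 0.25, OGN from -0.093 to 0.011, ASPN from -0.22 to 0.068 and PRELP from -0.27 to 0.01002.

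The Golden Retriever count was 258 with an intensity trend, 7182 with array weights, 104 with quantile normalisation, 2214 with means above the median only, 0 with the component score (1334 with an unadjusted p under 0.05), 0 without Cross breed tumours (4883), 83 with no status in the model and 2 to 4908 with each tumour left out. With the score DCN, BGN and OGN were -0.32, -0.38 and -0.068, and with each tumour left out FMOD ran from -0.11 to 0.092, OGN from -0.019 to 0.093 and ASPN from -0.014 to 0.31.

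For the interaction, the quantile values of ASPN and PRELP were 0.042 and 0.065, the centred PRELP value was 0.0062, and the count was 0 to 1 with each tumour left out (1 without NM replicate 6). Those ranges were -0.81 to 0.20 for BGN, -0.22 to 0.016 for OGN, -0.28 to 0.56 for ASPN and -0.31 to 0.50 for PRELP. Within Golden Retrievers the count was 0 to 1 (1 without NM replicate 6), DCN was -0.073 with the score, and the ranges were -0.54 to 0.90 for DCN, -0.59 to 0.42 for BGN, -0.22 to 0.0201 for OGN, -0.37 to 0.46 for ASPN and -0.41 to 0.40 for PRELP.

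The Cross breed count was 3 with the score and 3 with score and median centring together, a choice made after seeing the data, and 3771 to 7695 with each tumour left out (3771 without M replicate 17). OGN, ASPN and PRELP were then 0.096, 0.0021 and 0.54 with the score and 0.095, 0.0012 and 0.54 with both, and OGN ran from -0.091 to 0.0065. Calls that were higher made up 73.5%, 62.5% after quantile normalisation and 57.8% after centring. Without NM replicate 2, DCN, LUM, BGN, ASPN and PRELP had r of -0.21, -0.12, -0.30, -0.044 and -0.014 with FMOD, and without the 2 tumours farthest on the first gene r was -0.16, -0.022 and -0.19 for DCN, LUM and BGN with FMOD and -0.029 for FMOD with ASPN. These choices too were made after seeing the data, and the causes of all these changes were not tested. OGN has no value among means above the median, and with 1 Transcript cluster per member the choice of cluster could change nothing. Background signal was not measured. OGN's mean lay below the array median and those of ASPN and FMOD little above it, and what this does to their differences was not tested.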

Other observations

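Members did not move together in every tumour. In NM replicate 7, an Irish Terrier, LUM (1.44) was the lowest of the NM group while DCN (3.47) lay above its median of 3.13. In M replicate 14, a Golden Retriever, LUM (4.07) was far above its median of 2.77 and DCN (3.12) was at its own. In M replicate 16, a Bullmastiff, BGN (5.44) was far above its median of 3.71 while LUM (2.69) was just below 2.77. Within the 3 Labrador Retriever M tumours DCN averaged 2.73 ± 0.28 (SD, n = 3) and LUM 2.63 ± 0.46 (SD, n = 3), and the 2 NM tumours of the breed had 5.96 and 3.29 for DCN and 3.55 and 4.13 for LUM. The breeds with 1 or 2 tumours each had M tumours alone or NM tumours alone. Across these breeds M exceeded NM by 1.42 for BGN and 1.11 for LUM (5 M and 3 NM tumours), and breed and status cannot be told apart there. In the same tumours ASPN, PRELP and OGN differed by 0.33, 0.19 and 0.13, and DCN and FMOD by -0.17 and -0.16. Among Labrador Retrievers M was lower for BGN and LUM, at -0.98 and -1.21. These differences between breed classes were not tested.

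Tissue markers that could bring these genes into an oral biopsy were also read. Of 11 cartilage markers, 9 bone markers and 4 tendon markers 0 each had an unadjusted p under 0.05 between M and NM tumours in limma. The summed level of the cartilage markers ranged from 4.94 to 5.58 in M tumours and from 5.01 to 5.48 in NM tumours. In Cross breed tumours 4 of the 11 cartilage markers, 3 of the 9 bone markers and 1 of the 4 tendon markers were called higher by limma and 0 lower. Over all Transcript clusters 14.2% were called higher, and 12% of those with a mean under 2. All 11 cartilage markers had a higher mean (median difference 0.23, beside 0.08 over all Transcript clusters). In Golden Retrievers all 11 had a lower mean (median difference -0.21, beside -0.07) and 0 was called. COL2A1 and COL11A2 are also among the collagens described above. COL2A1, the collagen of cartilage, ACAN, IBSP and TNMD had mean log2 levels of 2.07, 1.58, 1.70 and 1.28, with ACAN and TNMD below the median of 1.62.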
